A study of Mus musculus with 9 samples.

Results

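RNA of 10 genes that bring fat into cells, release it inside them or move lipid between plasma lipoproteins was followed in mouse liver. They are the plasma lipid transfer gene Pltp, the secreted lipases Lipc and Lpl, the uptake genes Cd36, Slc27a1, Slc27a2 and Vldlr, the intracellular lipases Lipe and Mgll, and the regulator Pparg. They were taken by symbol from a table of 54532 genes, all 10 were found, all 10 passed the filter on low counts, and each was read in all 9 libraries. Values below are CPM (read counts scaled to library size) after edgeR's TMM scaling (TMM CPM) unless another scale is named.

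Fat reaches the liver as fatty acids released by adipose tissue and inside lipoprotein particles. Lipoprotein lipase and hepatic lipase cut the fat carried by these particles, and phospholipid transfer protein moves phospholipid between them and remodels HDL. Hepatocytes take up fatty acids with the help of CD36 and the fatty acid transport proteins, and in fatty liver the nuclear receptor PPAR-gamma is known to drive several uptake and storage genes, Cd36 among them.

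The livers came from male C57BL/6 mice on normal chow. The young group was 8 weeks old, and the labels describe no injection for it. Both old groups (20 months) had received adeno-associated virus 9 at 14 months through the tail vein and into the subcutaneous fat. In the old control group the virus was AAV9-shRNA-Neg, a negative control hairpin, and in the other old group it was AAV9-shRNA-Fabp4, against the fatty acid binding protein Fabp4. Each group had 3 libraries, described as independent biological replicates, of whole liver. In comparisons with young liver, age and virus injection cannot be told apart. The series title places the comparison in the setting of targeting FABP4 for healthy ageing of liver metabolism.

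Total counts ran from 14243344 to 17125440 per library, and 3 counts correspond to 0.175 to 0.211 CPM of total counts. The extraction text names NRVMs rather than liver, but the 7 hepatocyte markers summed to between 86460 and 141382 CPM of total in every library. The count column named Y2 matches no young number in the labels (1, 4 and 5) and is called the unnumbered young library. Its 10 skeletal muscle markers summed to 3767 CPM of total, against 90.6 in the library labelled old Fabp4 shRNA replicate 3 and at most 2.38 in the others. Its FPKM column held other reads, in which these markers summed to 7.96. Fabp4 itself stood at 3.40, 64.8 and 2.67 TMM CPM in young liver, at 7.21, 13.6 and 10.9 in old control liver, and at 11.2, 3.81 and 7.58 in the libraries labelled old Fabp4 shRNA. The last 2 groups overlapped (log2 fold change -0.49 ± 1.16, SE, edgeR adjusted p = 0.960). Without the unnumbered library, whose Fabp4 was far above all others, the difference was -0.47 ± 0.38 (SE, edgeR adjusted p = 0.823). The targeted gene does not separate these 2 groups, and the third group is called shRNA-labelled below.

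No member passed the test in any of the 3 comparisons (edgeR's quasi-likelihood test, adjusted p under 0.05 over all tested genes), with the unnumbered library or without it. DESeq2 called 0 of the members as well, with 9 of them tested on all 9 libraries, since it gave no p for Lpl there. Between old control and young liver 0.0357% of 14025 tested genes were called. At an unadjusted p under 0.05, 1 member was higher in old control liver (Pltp) and 2 were lower (Lipc and Lipe), against 6.42% and 4.07% of all tested genes. The median log2 fold change was -0.34 over the members and 0.01 over all tested genes.

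Between shRNA-labelled and old control liver 0% of the genes were called. At an unadjusted p under 0.05 no member was higher and Pltp was lower, against 3.27% and 3.48% of all genes. The members' median was 0.30 and that of all genes -0.01. Between shRNA-labelled and young liver 0.057% of the genes were called, no member was higher and Lpl was lower at an unadjusted p under 0.05, against 4.43% and 4.5% of all genes.

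Without the unnumbered young library 14413 genes were tested. The shares called were 0.0208% for old control against young, 0% between the old groups and 0.0416% for shRNA-labelled against young. For old control against young, Pltp was higher at an unadjusted p under 0.05 and Lipc, Slc27a1 and Lipe were lower, against 5.64% and 4.75% of all genes. Between the old groups Lpl and Pltp were lower, against 3.34%, and no member was higher, against 4.25%. For shRNA-labelled against young, Mgll was higher and Lipe lower, against 6.95% and 5.58%.

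**Figure D1:**
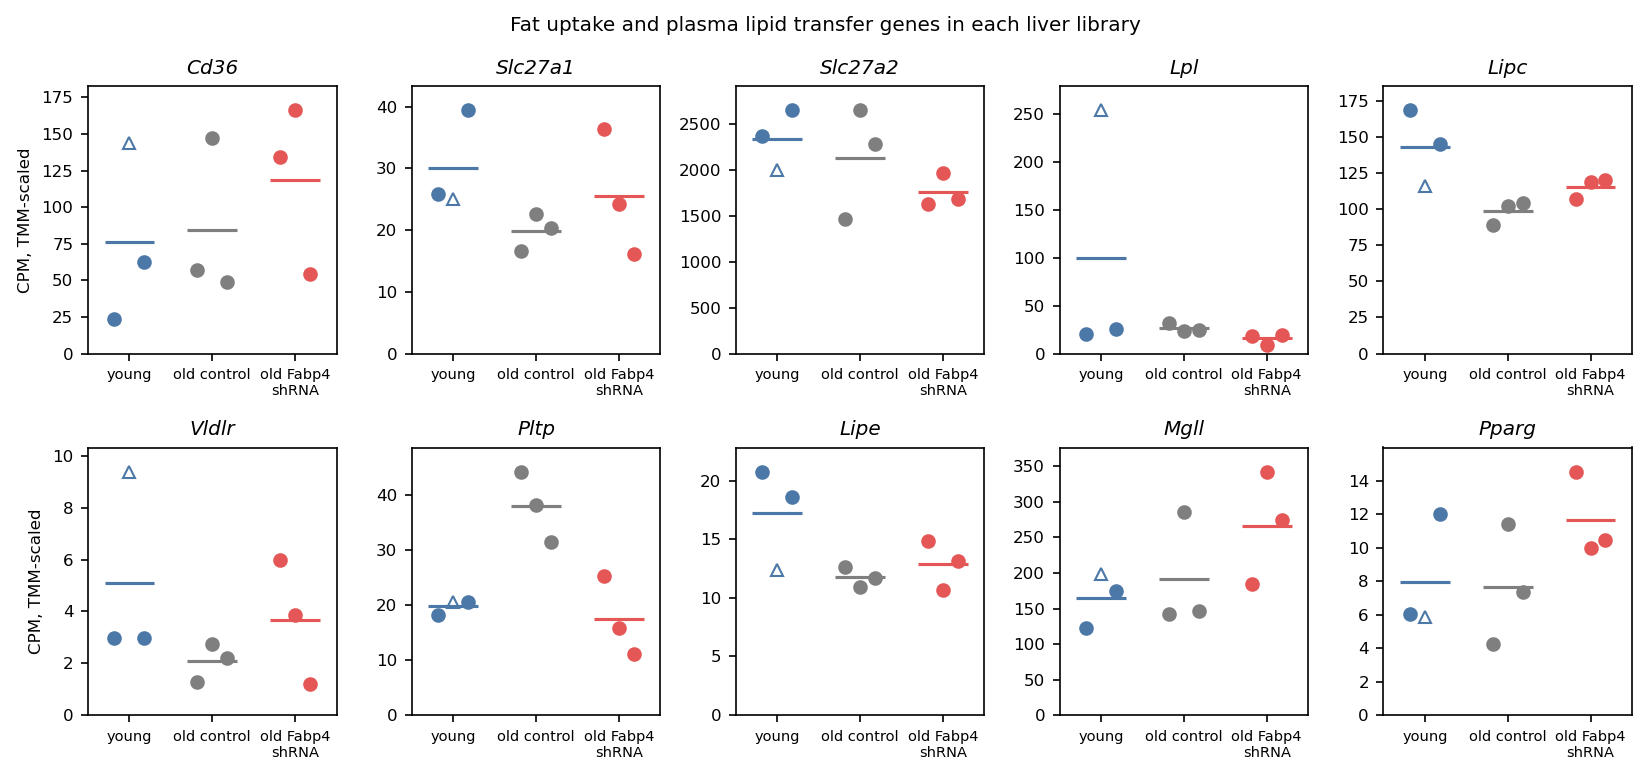
TMM-scaled CPM of each member (vertical axis, from 0) in the 3 libraries of each group; points are libraries, the open triangle is the unnumbered young library and the line is the group mean. The 3 old control points of Pltp lie above the other 6, and the triangle stands far above all other points for Lpl.

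Pltp encodes phospholipid transfer protein, which is secreted into plasma and exchanges phospholipid among lipoproteins (ENSMUSG00000017754, chr2:164839518-164857711, minus strand, GRCm38). It stood at 18.2 and 20.6 TMM CPM in young replicates 1 and 5 and at 20.5 in the unnumbered young library. In old control libraries 1, 2 and 5 it stood at 44.2, 38.1 and 31.5. In shRNA-labelled replicates 1, 3 and 6 it stood at 25.2, 15.8 and 11.1. All 3 old control libraries were therefore above all 6 others, and the young and shRNA-labelled libraries overlapped. The share of all tested genes whose groups separate in such a way was not counted. Here and for the genes below, separation of groups therefore only describes these libraries.

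The group means for Pltp were 19.8 ± 1.37 (SD, n = 3) in young, 37.9 ± 6.34 in old control and 17.4 ± 7.20 in shRNA-labelled liver. Old control liver differed from young by a log2 fold change of 0.94 ± 0.27 (SE, edgeR adjusted p = 0.296), which is 1.92-fold. The shRNA-labelled liver differed from old control by -1.13 ± 0.27 (SE, adjusted p = 0.728) and stood 14th of the 14025 genes by p. Both comparisons use the same 3 old control libraries. The difference from young was -0.19 ± 0.27, with a 95% interval from -0.78 to 0.40.

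With each library left out in turn, the Pltp difference of old control from young stayed between 0.82 and 1.06, and that between the old groups between -1.50 and -0.89. DESeq2 gave adjusted p of 0.103 and 0.124 for these 2 differences. Neither adjusted p passed the threshold by either tool.

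Of the 2562 exonic bases of Pltp, 495 (19.3%) are shared with Ctsa, a lysosomal carboxypeptidase gene on the opposite strand. The strand setting of the counting is not given in the sources used here, and without strand, reads of both genes cannot be told apart there. Ctsa stood at 178 to 204 CPM of total in young, 146 to 235 in old control and 148 to 194 in shRNA-labelled liver, with the 3 groups overlapping.

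Summed markers of other liver cells also differed between the groups. The 7 recruited macrophage markers summed to 82.9 to 136 CPM of total in young, 156 to 265 in old control and 85.4 to 148 in shRNA-labelled liver. Old control thus had the highest sums, but single markers did not all follow them. Gpnmb (2.62) and Trem2 (2.08) were highest in shRNA-labelled replicate 3. Of the 7 markers, 1 had a positive difference between shRNA-labelled and old control liver. The 8 Kupffer cell and macrophage markers summed to 118 to 245, 135 to 601 and 88.6 to 220 in the same order, with the groups overlapping. The 5 neutrophil markers summed to 9.38 to 21.6, 16.3 to 61.2 and 5.96 to 15.9, so that the old control and shRNA-labelled ranges did not overlap. The 7 sinusoidal endothelial markers summed to 70.7 to 72.8, 88.4 to 219 and 102 to 211, with both old groups above young and overlapping each other. The part of these cells in the Pltp result was not tested. In whole liver, fewer cells of a type and less RNA per cell cannot be told apart.

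The RefSeq promoter table (GRCm38.p6) holds windows of 300 bases, 250 before to 50 after an annotated start, for 9 of the 10 members, 17 windows in all. A gene can have more than 1 such start. They were searched on both strands for the nuclear receptor half-site AGGTCA, for 2 half-sites spaced by 1 base (DR1, AGGTCANAGGTCA) or by 4 bases (DR4, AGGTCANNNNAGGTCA) with up to 2 mismatches, and for the E-box CACGTG. A DR1 or DR4 can contain the half-site. Of all 32851 windows in the table, 16.3% hold the half-site, 3.86% a DR1, 3.02% a DR4 and 7.15% the E-box. Of the windows below, the first 3 belong to the members past an unadjusted p of 0.05 between old control and young liver, and that of Cd36 to the member with the widest range over libraries. Capitals mark the letters found.
Pltp, minus strand, chr2:164857659-164857958: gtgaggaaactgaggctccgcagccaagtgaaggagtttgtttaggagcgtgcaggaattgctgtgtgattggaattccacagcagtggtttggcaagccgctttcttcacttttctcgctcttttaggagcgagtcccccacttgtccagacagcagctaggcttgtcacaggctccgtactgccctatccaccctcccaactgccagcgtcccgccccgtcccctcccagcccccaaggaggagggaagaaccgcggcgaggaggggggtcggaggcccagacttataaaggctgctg
Lipc, minus strand, chr9:70952172-70952471: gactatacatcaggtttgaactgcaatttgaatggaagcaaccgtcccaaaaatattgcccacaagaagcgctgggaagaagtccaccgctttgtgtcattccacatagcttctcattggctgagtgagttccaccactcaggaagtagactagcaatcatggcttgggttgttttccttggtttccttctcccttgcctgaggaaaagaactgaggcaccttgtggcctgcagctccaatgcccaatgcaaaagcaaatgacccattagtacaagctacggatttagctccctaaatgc
Lipe, minus strand, chr7:25395938-25396237: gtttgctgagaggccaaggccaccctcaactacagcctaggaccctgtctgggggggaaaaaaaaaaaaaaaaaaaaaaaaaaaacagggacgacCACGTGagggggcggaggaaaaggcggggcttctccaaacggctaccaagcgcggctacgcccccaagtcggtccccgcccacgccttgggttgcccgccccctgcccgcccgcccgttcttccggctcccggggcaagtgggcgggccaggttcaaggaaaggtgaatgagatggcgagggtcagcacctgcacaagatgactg
Cd36, minus strand, chr5:17835847-17836146: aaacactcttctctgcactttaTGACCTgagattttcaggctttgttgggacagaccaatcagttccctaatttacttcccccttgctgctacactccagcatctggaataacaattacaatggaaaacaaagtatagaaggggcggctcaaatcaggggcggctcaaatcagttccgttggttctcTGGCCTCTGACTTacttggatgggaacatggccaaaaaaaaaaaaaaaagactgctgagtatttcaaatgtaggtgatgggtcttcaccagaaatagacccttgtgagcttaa
The windows of Pltp and of Lipc above hold none of these letters. A second Lipc window, chr9:70934759-70935058, holds 2 half-sites, at -88 to -83 and -76 to -71, and a DR1 with 2 mismatches at -22 to -10. This Lipc window and the Lipe and Cd36 windows above lie inside the gene bounds given here, so their starts are not the outermost ones. That of Lipe holds the E-box at -155 to -150 from the start of its window, and a second Lipe window, chr7:25390063-25390362, holds none of these letters. The Cd36 window holds the half-site on its minus strand at -228 to -223, and a DR1 with 2 mismatches at -63 to -51. Among windows not printed, the E-box is also found for Mgll (-44 to -39) and Slc27a1 (-202 to -197), and the half-site for Slc27a2 and Pparg. A match is a description of the letters and no measure of binding.

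Lipc encodes hepatic lipase, which hepatocytes secrete and which cuts phospholipid and triglyceride of HDL and remnants (ENSMUSG00000032207, chr9:70798128-70952226, minus strand). It stood at 168.6, 116 and 145 TMM CPM in young replicate 1, the unnumbered library and young replicate 5. In old control libraries 1, 2 and 5 it stood at 89.4, 102 and 104, and in shRNA-labelled replicates 1, 3 and 6 at 107, 119 and 120. All old control values were below all values of both other groups, at the nearest 104 against 107 in shRNA-labelled liver. The shRNA-labelled and young ranges overlapped through the unnumbered library.

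The old control mean of Lipc, 98.8 ± 8.18 (SD, n = 3), compared with 143 ± 26.2 in young and 115 ± 7.56 in shRNA-labelled liver. Old control differed from young by -0.54 ± 0.20 on the log2 scale (SE, edgeR adjusted p = 0.403), and by -0.70 ± 0.23 without the unnumbered library (adjusted p = 0.351). The shRNA-labelled group differed from old control by 0.23 ± 0.20 (adjusted p = 0.877). With each library left out, the first of these stayed between -0.70 and -0.41.

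Lpl encodes lipoprotein lipase, which works on vessel walls of muscle, heart and fat and is little made by adult hepatocytes (ENSMUSG00000015568, chr8:68880491-68907448, plus strand). It stood at 20.3 and 25.8 TMM CPM in the numbered young libraries and at 253.9 in the unnumbered one, 8.04 times the highest of the other 8. In old control libraries 1, 2 and 5 it stood at 31.6, 23.5 and 24.1, and in shRNA-labelled replicates 1, 3 and 6 at 18.7, 9.32 and 19.6. The shRNA-labelled values were below all others.

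The size of the Lpl differences from young liver depends on that library. Old control differed from young by -1.92 ± 0.94 on the log2 scale (edgeR adjusted p = 0.516) with it and by 0.16 ± 0.31 (adjusted p = 0.876) without it. For shRNA-labelled against young the difference was -2.65 ± 0.97 (adjusted p = 0.509) with it and -0.54 ± 0.31 (adjusted p = 0.503) without it. With the reads behind its FPKM column instead, these 2 differences were 0.07 ± 0.27 and -0.63 ± 0.27 (edgeR adjusted p = 0.936 and 0.251), the second at an unadjusted p under 0.05. Between the old groups it was -0.70 ± 0.28 without it (adjusted p = 0.619). Leaving out shRNA-labelled replicate 3, the lowest library, took the last difference to -0.46 in the fit that keeps the unnumbered one.

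**Figure D2:**
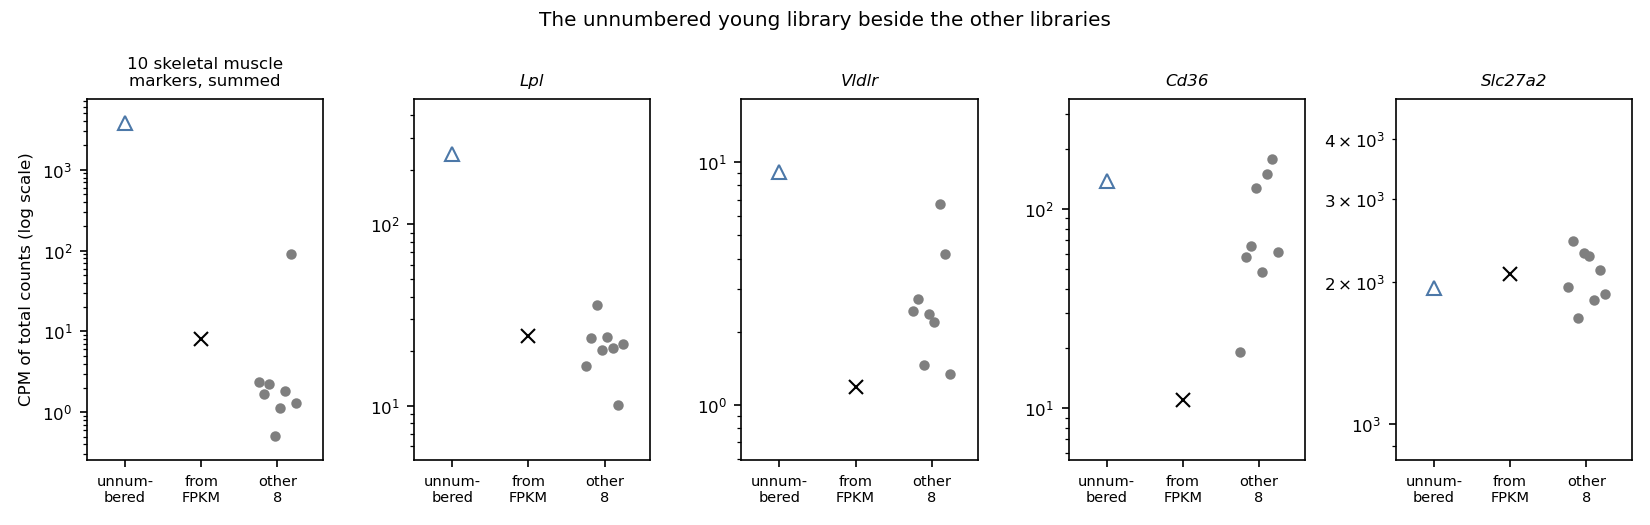
CPM of total counts on log axes for the summed skeletal muscle markers and 4 members, in the unnumbered young count column (triangle), in the reads behind its FPKM column (cross) and in the other 8 libraries (dots). The muscle markers (3767 CPM), Lpl and Vldlr are highest in the count column, and the cross of Lpl and of Slc27a2 lies among the dots.

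Muscle reads and Lpl were high together in the unnumbered count column. Among the reads behind its FPKM column, Lpl stood at 24.3 CPM of total and Vldlr at 1.19. Over all 14025 tested genes, 9.77% were higher in the unnumbered count column than in each of the other 8, and 1.16% were more than 2 times the highest of them. Of the 6 fat cell markers, Plin1 and Lep were at 0 there, Adipoq stood at 0.0618 and Retn at 0.124 CPM of total, Cfd at 1.30, and Adig at 1.79, above its 0.320 or less in the other 8 libraries. What part the muscle reads have in each value of that library was not tested.

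Cd36 encodes the fatty acid translocase, a membrane protein that helps long-chain fatty acids enter cells (ENSMUSG00000002944, chr5:17781690-17888801, minus strand). It stood at 23.3, 143.7 and 62.4 TMM CPM in young replicate 1, the unnumbered library and young replicate 5. In old control libraries 1, 2 and 5 it stood at 56.9, 147 and 48.5, and in shRNA-labelled replicates 1, 3 and 6 at 134, 166 and 54.5. Both old groups held low and high libraries, while in young the only high value was that of the unnumbered count column. All 3 groups overlapped. Among the 8 numbered libraries Cd36 had the widest range of the members, 7.13-fold, against a median of 2.33-fold over all tested genes.

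Old control differed from young in Cd36 by 0.14 ± 0.70 on the log2 scale (95% interval -1.47 to 1.74), and shRNA-labelled from old control by 0.49 ± 0.70 (-1.11 to 2.09). Against young, the shRNA-labelled difference was 0.63 ± 0.70 with the unnumbered library and 1.47 ± 0.66 without it (edgeR adjusted p = 0.411). With the reads behind its FPKM column in its place, where Cd36 stood at 11.0 CPM of total, it was 1.85 ± 0.70 (adjusted p = 0.236). The intervals leave room for large differences of either sign in the first 2 comparisons.

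Slc27a2 encodes FATP2, the main fatty acid transport protein of hepatocytes, which also activates very long-chain fatty acids (ENSMUSG00000027359, chr2:126552407-126588243, plus strand). It stood at 2370, 2001 and 2649 TMM CPM in young replicate 1, the unnumbered library and young replicate 5, at 1465, 2649 and 2280 in old control libraries 1, 2 and 5, and at 1634, 1965 and 1683 in shRNA-labelled replicates 1, 3 and 6. In TMM CPM the shRNA-labelled values were all below the young ones, and the old control values spanned both. In CPM of total shRNA-labelled replicate 3 (2122) was above young replicate 1 (1953) and the unnumbered library (1936), so those groups overlapped. The difference of shRNA-labelled from young was -0.41 ± 0.27 on the log2 scale (edgeR adjusted p = 0.659). Of its exonic bases, 11.2% are shared with Gm26697, a noncoding gene on the opposite strand.

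Slc27a1 encodes FATP1, a fatty acid transporter best known from muscle and fat (ENSMUSG00000031808, chr8:71568882-71587302, plus strand). It stood at 25.8, 25.1 and 39.4 TMM CPM in young replicate 1, the unnumbered library and young replicate 5, at 16.6, 22.7 and 20.3 in old control libraries 1, 2 and 5, and at 36.3, 24.3 and 16.1 in shRNA-labelled replicates 1, 3 and 6. All old control values were below all young values in these counts, and the shRNA-labelled libraries spread over the whole range. Among the reads behind the FPKM column of the unnumbered library, Slc27a1 stood at 12.5 CPM of total. This was below the 19.0, 19.7 and 20.2 CPM of total of old control libraries 1, 2 and 5, so the separation rests on the count column. Old control differed from young by -0.60 ± 0.29 (edgeR adjusted p = 0.495), and by -0.74 ± 0.32 without the unnumbered library (adjusted p = 0.454).

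Vldlr encodes the VLDL receptor, which takes up triglyceride-rich particles and is scarce in healthy liver (ENSMUSG00000024924, chr19:27216484-27254231, plus strand). It rested on 22 to 147 counts per library. It stood at 2.96 and 2.98 TMM CPM in the numbered young libraries and at 9.39 in the unnumbered one, at 1.28, 2.72 and 2.21 in old control libraries 1, 2 and 5, and at 5.98, 3.86 and 1.20 in shRNA-labelled replicates 1, 3 and 6. Old control values were below all young values in these counts, and the unnumbered library was again the highest, 1.57 times the next. Among the reads behind its FPKM column Vldlr stood at 1.19 CPM of total. This was below the 1.47, 2.37 and 2.19 CPM of total of old control libraries 1, 2 and 5. Old control differed from young by -1.31 ± 0.61 (edgeR adjusted p = 0.484) with that library and by -0.55 ± 0.58 (adjusted p = 0.756) without it.

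**Figure D3:**
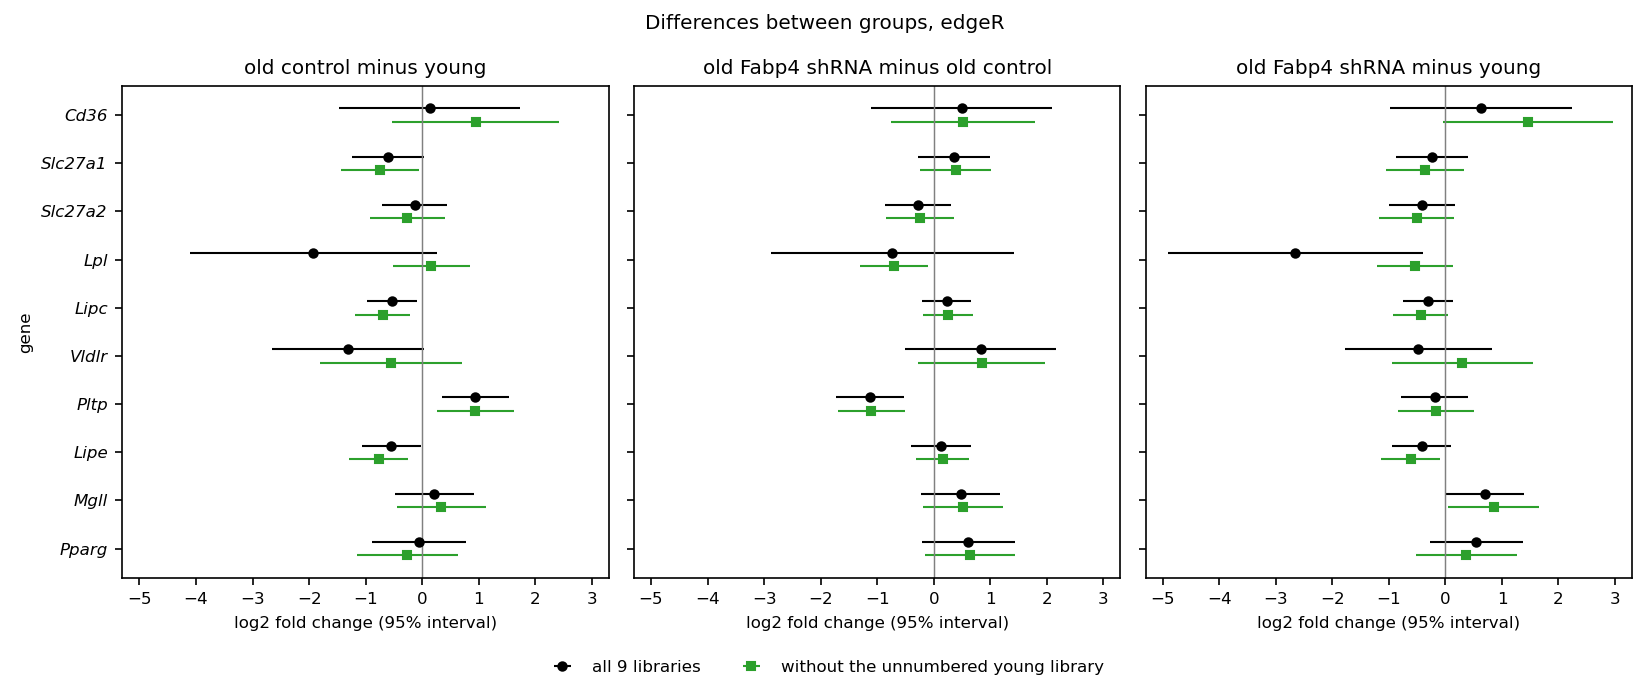
Log2 fold change of each member in the 3 comparisons with its 95% interval from edgeR, in all 9 libraries (black circles) and without the unnumbered young library (green squares). Leaving that library out moved Lpl from -1.92 to 0.16 for old control minus young, while Pltp stayed at 0.94.

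Lipe encodes hormone-sensitive lipase, which frees fatty acids from stored fat, mainly in adipose tissue (ENSMUSG00000003123, chr7:25379527-25398710, minus strand). It stood at 20.8, 12.4 and 18.6 TMM CPM in young replicate 1, the unnumbered library and young replicate 5, at 12.7, 11.0 and 11.7 in old control libraries 1, 2 and 5, and at 14.8, 10.7 and 13.1 in shRNA-labelled replicates 1, 3 and 6. Both numbered young libraries were above all 6 old ones, and the unnumbered library fell among the old values. Old control differed from young by -0.55 ± 0.24 (edgeR adjusted p = 0.461), and by -0.77 ± 0.24 without the unnumbered library (adjusted p = 0.326). For shRNA-labelled against young the difference without that library was -0.61 ± 0.24 (adjusted p = 0.328). Of its exonic bases, 15.6% are shared with 4732471J01Rik on the opposite strand.

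The libraries also differed in Dbp, a clock-controlled transcription factor whose RNA swings widely over the day. It stood at 82.7, 31.4 and 82.9 CPM of total in young replicate 1, the unnumbered library and young replicate 5, at 0.666, 0.512 and 16.3 in old control libraries 1, 2 and 5, and at 60.0, 0.536 and 5.43 in shRNA-labelled replicates 1, 3 and 6. The 3 libraries with the most Dbp (young replicates 1 and 5 and shRNA-labelled replicate 1) were also the 3 with the most Lipe. In TMM CPM they were also the 3 with the most Slc27a1. In CPM of total, Slc27a1 stood at 21.3 in young replicate 1, below shRNA-labelled replicate 3 (26.2) and the unnumbered library (24.3). Over the 8 numbered libraries, Pearson's r with Dbp was 0.84 for Lipe, 0.66 for Lipc and 0.64 for Slc27a1. It was -0.60 for Mgll and -0.52 for Cd36, and lay between -0.27 (Pltp) and 0.37 for the other members. With Npas2, another clock gene, r was 0.54 for Pltp and Cd36, -0.72 for Lipc and -0.81 for Lipe. It lay between -0.40 and 0.40 for the others. With Arntl, also a clock gene, it was -0.77 for Slc27a1 and -0.76 for Lipe. For the others, Pltp (0.20) among them, it lay between -0.49 and 0.44. These r also carry the differences between the groups. The part of time of day in the differences of any member was not tested.

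Mgll encodes monoacylglycerol lipase, which completes the breakdown of stored triglyceride (ENSMUSG00000033174, chr6:88724412-88828360, plus strand). It stood at 122.8, 198 and 174 TMM CPM in young replicate 1, the unnumbered library and young replicate 5, at 142.6, 286 and 147 in old control libraries 1, 2 and 5, and at 184, 342 and 274 in shRNA-labelled replicates 1, 3 and 6. The shRNA-labelled values were above both numbered young libraries but overlapped the unnumbered one and the old control range. Against young the difference was 0.69 ± 0.32 (edgeR adjusted p = 0.557), and 0.85 ± 0.37 without the unnumbered library (adjusted p = 0.379). Without both libraries that hold muscle reads it was 0.63 ± 0.38 (edgeR adjusted p = 0.729). Of its exonic bases, 3.29% are shared with Gm26588 on the opposite strand.

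Pparg encodes PPAR-gamma, the nuclear receptor that directs fat storage and is low in lean liver (ENSMUSG00000000440, chr6:115360951-115490399, plus strand). It stood at 6.06, 5.87 and 12.0 TMM CPM in young replicate 1, the unnumbered library and young replicate 5, at 4.24, 11.4 and 7.32 in old control libraries 1, 2 and 5, and at 14.5, 9.98 and 10.4 in shRNA-labelled replicates 1, 3 and 6. All 3 groups overlapped. The shRNA-labelled group differed from old control by 0.61 ± 0.38 (95% interval -0.21 to 1.43, edgeR adjusted p = 0.80), and old control from young by -0.06 ± 0.38 (-0.89 to 0.77).

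Per gene length, the members spread over more than 3 orders of magnitude. The deposited FPKM (fragments scaled to gene length and depth) over the 8 numbered libraries had a median of 544 for Slc27a2, with a range from 366 to 685 that touched no other member. Lipc (median 50.2), Mgll (33.8), Cd36 (15.9) and Pltp (8.55) followed, and each overlapped its neighbour in this order, Pltp also overlapping Slc27a1 below it. Slc27a1 (3.89), Pparg (3.36), Lipe (2.10) and Lpl (2.02) lay lower and overlapped one another. Vldlr was the lowest, with a median of 0.274 and a highest value of 0.561, below the lowest value of Lpl, 0.860. In the FPKM as well, the 3 old control values of Pltp (11.8 to 16.2) lay above the numbered young (6.90 to 7.81) and the shRNA-labelled ones (4.22 to 9.30).

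**Figure D4:**
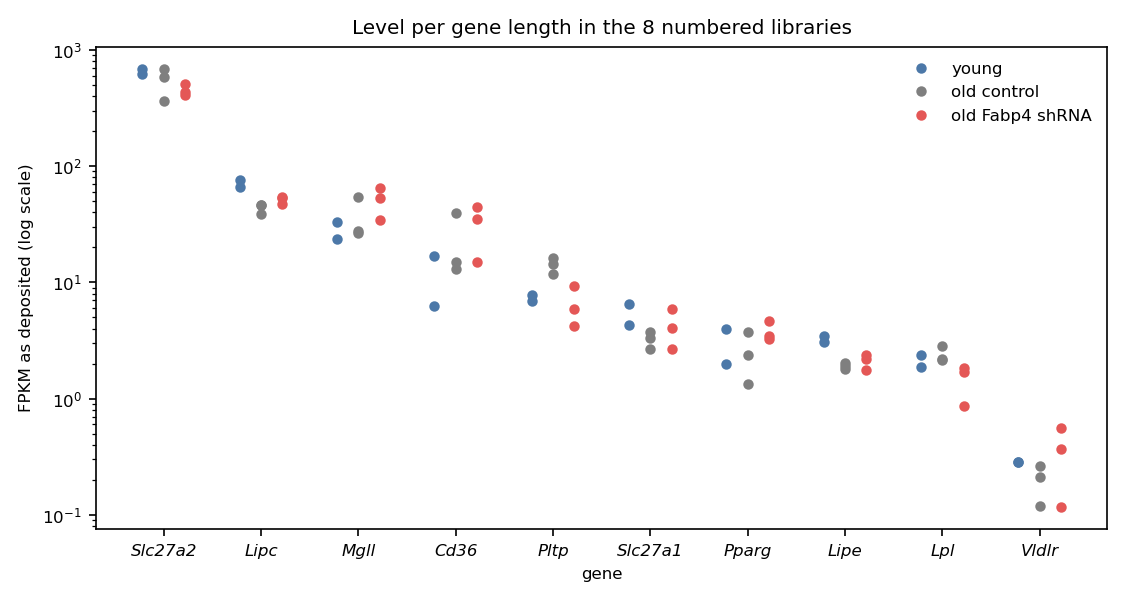
FPKM as deposited (log axis) of each member in the 8 numbered libraries, coloured by group, with genes in order of their median. Slc27a2 lies alone at the top (366 to 685), Vldlr alone at the bottom (0.116 to 0.561), and the points between form an overlapping series.

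The genes around the members were read from 6 lists of 85 genes in all, of which 77 were tested. At an unadjusted p under 0.05, the comparison of old control with young had 5 higher and 6 lower, that of shRNA-labelled with old control 5 higher and 6 lower, and that of shRNA-labelled with young 5 higher and 8 lower. Over all tested genes the shares higher and lower were 6.42% and 4.07%, 3.27% and 3.48%, and 4.43% and 4.5% in the same order. edgeR called 0 of the 77 after adjustment over all genes in each comparison. With the recovered reads in place of the unnumbered count column it called 1, Lipg, for shRNA-labelled against young (1.82 ± 0.35 on the log2 scale, edgeR adjusted p = 0.0451), where the calls over all genes went from 8 to 57. Without the unnumbered library the 3 counts became 14 and 7, 5 and 6, and 12 and 9, against 5.64% and 4.75%, 4.25% and 3.34%, and 6.95% and 5.58% of all genes.

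Among partners of the lipases, Apoc2, the cofactor that lipoprotein lipase needs, stood at 2.80, 2.78 and 4.21 CPM of total in young, at 8.93, 5.18 and 11.7 in old control and at 6.50, 4.71 and 3.45 in shRNA-labelled liver. Its exons lie under the read-through gene Gm44805 on the same strand, so how its reads were assigned is uncertain. In these counts Apoc2 was higher in each old control library than in each young one (1.24 ± 0.36 on the log2 scale, edgeR adjusted p = 0.296). Lipg, the endothelial lipase that cuts HDL phospholipid, stood at 3.20, 1.92 and 2.95 CPM of total in old control and at 6.16, 11.5 and 7.94 in shRNA-labelled liver, with no overlap (1.54 ± 0.39, adjusted p = 0.728). Neither difference passed the adjusted threshold.

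Of the HDL genes beside Pltp, Apom, the HDL carrier of sphingosine-1-phosphate, differed by -1.01 ± 0.35 between old control and young (edgeR adjusted p = 0.385) and by 1.12 ± 0.36 between shRNA-labelled and old control liver (adjusted p = 0.728). Apoa1, the main HDL apolipoprotein, differed by -0.79 ± 0.29 between the old groups (adjusted p = 0.728). These comparisons share the old control libraries. Over the 18 HDL genes the median log2 fold change was -0.07 between old control and young, beside 0.01 over all tested genes.

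Of 10 tested genes of the list of PPAR-gamma targets of fatty liver, 9 had a positive difference between old control and young, with a median log2 fold change of 0.88, and 3 were higher at an unadjusted p under 0.05 (Cidea, Cfd and Cidec). Of all 14025 tested genes 7165 were positive, with a median of 0.01, and 6.42% were higher at that p. Between the old groups 3 of the 10 were positive, with a median of -0.45 beside -0.01 over all genes, and the 2 comparisons share the old control libraries. Between shRNA-labelled and young liver 7 of the 10 were positive, with a median of 0.81 beside 0.02 over all genes. Without the unnumbered library all 10 were positive for old control against young, with a median of 1.65. For shRNA-labelled against young 8 were then positive, with a median of 1.41. Cfd and Adipoq of this list are also fat cell markers, and Fabp4 is the targeted gene. The 6 fat cell markers summed to 0.366, 3.27 and 1.69 CPM of total in young, to 7.66, 6.91 and 2.38 in old control and to 2.12, 3.87 and 0.175 in shRNA-labelled liver, and their part in this list was not tested. Cidec, a lipid droplet protein, stood at 4.02, 21.3 and 6.04 CPM of total in young, at 18.8, 74.5 and 16.9 in old control and at 35.0, 42.8 and 45.8 in shRNA-labelled liver. The unnumbered library again stood above the other young ones. G0s2, an inhibitor of the triglyceride lipase ATGL, stood at 40.9, 177 and 179.9 in young, at 513, 508 and 594 in old control and at 375, 664 and 583 in shRNA-labelled liver, and both old groups lay above all young values (1.93 ± 0.44 for old control against young, edgeR adjusted p = 0.192).

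For 5 members the tested genes with the closest pattern were found by Pearson's r of log2 TMM CPM over the 8 numbered libraries, which share depth and grouping, so that high values arise among 14025 genes. For Cd36 they were Gm47694 (r = 0.98) and Chpt1 (0.94), for Pparg Ugt2b34 (0.98) and Gpr39 (0.97), and for Lpl Spic and Mx2 (both 0.97). For Pltp they were Zbed4 (0.98) and Fcor (0.96), and for Mgll Gm44250 (0.99) and Ccdc127 (0.98). These values describe the libraries only.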

How the data were processed

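Liver RNA of 9 mice was sequenced, 3 per group. The submitters' processing notes name HISAT2 and the genome build GRCm38.p6. Read assignment to genes, with or without strand, is not given in the sources used here. Both deposited tables are the authors' own: whole read counts per gene, with no scaling, and FPKM, fragments scaled to gene length and depth. Counts and FPKM were proportional gene by gene (tolerance 0.001) for 100% of 10483 genes with at least 20 counts in 8 columns, and for 0.229% in the unnumbered young column. Whole reads were recovered there from the FPKM for 17877 genes, but not for 226. Of the 17252 with few enough reads to test, 100% were whole within 0.05 reads. These 11805823 reads served as an alternative.

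Testing used edgeR 4.0.16 in R 4.3.3 (filterByExpr by group, TMM factors 0.825 to 1.15, robust quasi-likelihood fit of 3 group means to all 9 libraries with 6 residual degrees of freedom, two-sided, Benjamini-Hochberg over all tested genes). The biological coefficient of variation was 0.320. The fit was tested on simulated counts. Floors of 3 counts cover counting error only. Positions came from GENCODE mouse release 21, which holds 54409 of the 54532 identifiers. The alternatives were DESeq2 1.42.0, its size factors, no filter, the 6 libraries compared, the recovered reads, the animal numbers as a block and each library left out. DESeq2 without the unnumbered library and edgeR without both libraries with muscle reads were chosen after seeing the data.

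The members and gene lists were chosen with earlier results of these data known. Named were all members, Fabp4, and from each pathway list genes among the 3 with the smallest p in a comparison. Ctsa, Dbp, Npas2, Arntl, Gpnmb, Trem2, Pdk4 and Gpihbp1 fall outside that rule and were chosen after their values were seen. 1 gene that the rule names is not reported here.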

Additional observations from a re-analysis of the deposited data

How the results depend on the processing

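edgeR and DESeq2 called no member in any comparison under any alternative run, and 485 recomputed log2 fold changes of the members kept their sign while 25 turned, and no cause was tested. For old control against young, Lpl moved to 0.0675 with the recovered reads, 0.27 with the replicate block, 0.17 with DESeq2 without the unnumbered library and 0.17 without both libraries with muscle reads. Pparg moved to 0.0125 with the recovered reads and Mgll to -0.0172 with the block. Between the old groups Slc27a2 moved to 0.0328 with the block. For shRNA-labelled against young, Vldlr moved to 0.57, 1.19, 0.29 and 0.25 with the recovered reads, the block, DESeq2 without the unnumbered library and without both libraries, Slc27a1 to 0.41 with the block, and Pltp to 0.12 and 0.29 with the recovered reads and the block. The block rests on animal numbers that the labels do not describe as shared, with correlations of -0.05 to 0.11 between same-numbered libraries, and it called no member.

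With each library left out, the differences of old control from young ran from -0.54 to 0.95 for Cd36, -2.41 to 0.16 for Lpl, -0.47 to 0.35 for Pparg, -0.33 to 0.074 for Slc27a2 and -0.20 to 0.39 for Mgll. Those of shRNA-labelled from young ran from -1.02 to 0.30 for Vldlr, -0.58 to 0.0094 for Slc27a1 and -0.56 to 0.0514 for Pltp. The pathway genes at an unadjusted p under 0.05 numbered 11, 11 and 13. Leaving out a library gave 7 to 21, 6 to 16 and 5 to 21. Old control against young gave 21 with the recovered reads, 28 with the block, 24 with DESeq2 without the unnumbered library and 20 without both. For shRNA-labelled against young, the counts were 26 with the recovered reads, 20 with the block, 8 with the 6 libraries and 22 with DESeq2 without the unnumbered library. Of the members, Vldlr had the fewest counts, from 22 to 147 per library.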

Other observations

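Pdk4, a kinase whose RNA is known to be high in fasting, stood at 1.83 and 2.04 CPM of total in the numbered young libraries and at 185 in the unnumbered one, at 52.7, 46.2 and 21.9 in old control libraries 1, 2 and 5, and at 5.89, 252 and 72.0 in shRNA-labelled replicates 1, 3 and 6. Among the reads behind the unnumbered FPKM column Pdk4 stood at 3.39. The part of the muscle reads, or of fasting, in these Pdk4 values was not tested. Gpihbp1, the endothelial anchor of lipoprotein lipase, stood at 3.11, 11.4 and 4.07 in young, 10.9, 6.27 and 10.7 in old control and 21.8, 6.91 and 8.82 in shRNA-labelled liver.

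Among the reads behind the unnumbered young FPKM column, Pltp stood at 7.79 CPM of total, Lipc at 121, Slc27a1 at 12.5, Slc27a2 at 2076, Mgll at 116, Lipe at 13.0 and Pparg at 3.64. Fabp4 stood at 2.20, against 62.7 in the count column of the same name.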
